A study of Drosophila melanogaster with 16 samples.

Results

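The genes described here encode adhesion and scaffold proteins of the junctions that join epithelial cells in the fruit fly Drosophila melanogaster. The list named 10 genes: shg and alpha-Cat of the adherens junction, and cora, Nrx-IV, kune, sinu, Mcr, Cont, Nrg and Lac of the septate junction. A gene was followed through each probe set on the array whose annotation gave that gene's symbol and no other. Under that rule 9 of the 10 genes had a probe set, 11 probe sets in all, of 11982 genes and 18952 probe sets in the table; Nrg had 3, the other 8 genes had 1 each, and Mcr has no value here. All 11 probe sets passed the filter on dim signals, with no value below 5.33 on the log2 scale on any array.

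Total RNA was taken from wing imaginal discs, the epithelial sacs that become the adult wings, and from brain complexes of late (3rd instar) larvae, and each RNA sample was read on 1 array. The lgl mutants were lgl27S3/lglE2S31 larvae, a null combination of alleles, dissected at day 9 after egg deposition, with 3 disc arrays and 3 brain arrays. The scrib mutants were scrib1/scrib2 larvae, also dissected at day 9, with 3 disc arrays and 3 brain arrays. Wild-type larvae were dissected at day 5, with 2 disc arrays and 2 brain arrays. Each mutant was therefore 4 days older than its wild type, and age and genotype cannot be told apart in any comparison of a mutant with wild type. The mutant tissues are labelled as tumours and the wild-type tissues as free of them. The lgl and scrib comparisons share the same wild-type arrays. The labels do not say whether replicates came from separate crosses or dissections. The p-values therefore rest on the spread between these samples, pooled over the 6 groups, and that spread may be partly technical.

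Adherens junctions form a belt near the apical surface, in which DE-cadherin binds its counterpart on the neighbouring cell and is tied through catenins to actin. Septate junctions lie basal to that belt in insects; claudins, immunoglobulin-domain adhesion proteins and a FERM-domain scaffold assemble into a ladder that limits diffusion between cells. In the larval brain the same septate proteins form the barrier made by surface glia, and Scribble, Lethal giant larvae and Discs large are the polarity proteins of the basolateral membrane.

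Signals are the deposited log2 values, on which 1 unit is a doubling, and levels are compared only between arrays for the same probe set. A probe set was called changed at a Benjamini-Hochberg adjusted p below 0.05 in limma, a linear model with moderated variances fitted to all 8819 probe sets that passed the filter. The targeted transcript was checked first: l(2)gl averaged 3.63 in lgl discs against 10.62 in wild-type discs, and 2.41 in lgl brains against 9.41 in wild-type brains. The scrib probe set averaged 10.11 in scrib discs against 10.25 in wild-type discs, and 7.63 in scrib brains against 7.67 in wild-type brains, so it does not check that label. The wild-type pairs were less alike than the mutant triplicates: the pooled SD over all probe sets was 0.65 and 0.66 in wild type and 0.33 to 0.45 in the mutant groups. The model used 1 spread per probe set for all groups, which on average understates that of the wild-type pairs. SEs and p-values against wild type can therefore be too small. Where arrays were instead weighted by the spread of their group, no junction probe set was called in lgl discs or lgl brains against wild type. Against wild-type brains, 9 of 9 tested neuronal markers were lower in wild-type discs and 8 of 8 wing disc markers were higher, as the tissue labels state. Wild-type discs also held more signal of neighbouring larval tissue than mutant discs. The linear signals of a marker list were summed on each array and the sum put on the log2 scale. The brightest markers therefore weigh most. This summed signal of 4 fat body markers was 9.63 to 10.51 in lgl discs and 9.10 to 9.59 in scrib discs. In wild-type discs it was 12.66 to 15.65, and 3 of the 4 markers were lower in each mutant. Of 5 tested muscle markers 3 were lower in lgl discs and 4 in scrib discs. Of 5 tested salivary gland markers 4 were lower in lgl discs and 3 in scrib discs, with 0 higher. The sum over 6 salivary gland markers was 4.95 to 5.39 in lgl discs and 5.11 to 8.36 in scrib discs. In the 2 wild-type disc arrays it was 9.64 and 13.26. The tracheal sum went the other way. It was 13.06 to 13.41 in wild-type discs, 14.41 to 14.54 in lgl discs and 13.51 to 13.83 in scrib discs. All 5 tested tracheal markers were higher in discs than in brains in each genotype. Of 9 glial markers 6 were lower in lgl discs, 6 in scrib discs and 7 in wild-type discs than in brains. The other glial markers were higher in discs, 3 in lgl, 3 in scrib and 2 in wild type. Whether these tissues have a part in the disc results was not tested.

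Most of the junction genes had a strong signal in discs and a weaker one in brains. In lgl larvae 7 of the 11 probe sets were higher in discs than in brains and 1 was lower, in scrib larvae 7 were higher and 2 lower, and in wild type 6 were higher and 2 lower. Over all probe sets, 44.7% were called in lgl, 46.2% in scrib and 42.8% in wild type, so tissue differences were common on the array. The median difference of the 11 probe sets was 1.64 in lgl, 1.20 in scrib and 0.78 in wild type, against medians of -0.07, -0.09 and 0.01 over all probe sets tested. Nrg counts 3 times there; with each of the 9 genes taken once, by its brightest probe set, the medians were 1.64 in lgl, 1.20 in scrib and 1.42 in wild type. The arrays hold whole tissue, so fewer cells of a type and less RNA per cell cannot be told apart.

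Of the septate junction genes with 1 probe set, the claudin genes sinu and kune and the contactin gene Cont had the largest differences between discs and brains in each genotype. Sinuous, the claudin encoded by sinu, is a membrane protein of the septate strand. Its signal was 12.83, 12.81 and 12.86 in lgl discs, against 10.14, 10.50 and 10.32 in lgl brains. In scrib larvae it was 12.83, 12.80 and 12.66 in discs, against 9.67, 10.54 and 9.71 in brains. In wild type it was 12.45 and 12.41 in discs, against 9.97 and 9.70 in brains. Every disc array lay above every brain array, on average by 2.51 ± 0.20 (SE) in lgl, 2.79 ± 0.20 in scrib and 2.60 ± 0.25 in wild type, and the wild-type step was 6.05-fold (limma adjusted p = 1.77e-06). Kune-kune, a second claudin, differed by 1.90 ± 0.17 in lgl, 2.08 ± 0.17 in scrib and 1.67 ± 0.21 in wild type, and its arrays read 11.12 to 11.65 in discs and 9.23 to 9.96 in brains, with no overlap. Cont encodes an immunoglobulin and fibronectin repeat protein of the same strands. Its arrays read 12.18 to 12.88 in discs and 9.67 to 10.65 in brains. It differed between discs and brains by 2.27 ± 0.18 in lgl, 2.20 ± 0.18 in scrib and 2.39 ± 0.22 in wild type, with a wild-type step of 5.25-fold (limma adjusted p = 1.37e-06).

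DE-cadherin, the product of shg, is the homophilic adhesion protein of the adherens junction and had the tissue difference that varied most between genotypes among the single-probe-set genes. Its signal was 8.99, 8.80 and 9.20 in lgl discs, against 6.94, 7.09 and 6.51 in lgl brains. It was 8.78, 8.75 and 8.14 in scrib discs, against 7.33, 7.33 and 7.40 in scrib brains. It was 8.71 and 9.11 in wild-type discs, against 6.47 and 6.20 in wild-type brains. Disc arrays were higher than brain arrays throughout, and the gap was 2.15 ± 0.21 in lgl (4.43-fold), 1.20 ± 0.21 in scrib (2.30-fold) and 2.57 ± 0.25 in wild type (5.93-fold), all called by limma.

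Its partner alpha-Cat, which links the cadherin complex to actin, ran the other way: its probe set was lower in discs than in brains in scrib larvae (-0.51 ± 0.13, adjusted p = 0.00644) and in wild type (-0.47 ± 0.16, adjusted p = 0.0322), and was not called in lgl larvae (-0.23 ± 0.13, adjusted p = 0.183). The wild-type call was lost without the first wild-type disc array (-0.34, adjusted p = 0.17) or the first wild-type brain array (-0.37, adjusted p = 0.13).

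The other septate genes with 1 probe set differed less between tissues. Coracle, the FERM-domain scaffold encoded by cora, was called in no genotype, with disc minus brain differences of 0.48 in lgl, 0.20 in scrib and 0.21 in wild type. The lgl difference was called in 8 of 24 alternative settings, among them without any 1 of the wild-type arrays (adjusted p from 0.038 to 0.046). Its arrays ran from 10.37 to 11.29, and in the order of group means (11.19 in lgl discs, 11.09 in scrib discs, 10.89 in scrib brains, 10.87 in wild-type discs, 10.71 in lgl brains and 10.66 in wild-type brains) each neighbour overlapped the next. Nrx-IV, the neurexin that binds Coracle, was higher in scrib discs than in scrib brains (0.80 ± 0.23, adjusted p = 0.0114) and was not called in lgl (0.41) or in wild type (0.45). Without the second scrib brain array the scrib difference was 0.48 (adjusted p = 0.033) and the lgl difference was called (adjusted p = 0.039), and with only the 2 groups compared in the fit the scrib call was lost (adjusted p = 0.064). Lachesin, the immunoglobulin-domain protein encoded by Lac, was higher in lgl discs than in lgl brains (0.87 ± 0.24, adjusted p = 0.00981) and was not called in scrib (0.46) or in wild type (0.65). The wild-type brain arrays of Lac read 11.24 and 12.33, and the wild-type difference was 0.11 without the first of them and 1.20 (adjusted p = 0.0014) without the second. It was 0.95 (adjusted p = 0.041) without the first wild-type disc array. The scrib difference was called in 5 of the 24 settings, so genotypes are not set apart at Lac or Nrx-IV by which call passed.

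Neuroglian, the L1-type adhesion protein encoded by Nrg, was read by 3 probe sets that did not move alike between tissues. As background, the gene makes a widely expressed form and a neuronal form that differ in the cytoplasmic tail; the tables used here do not say which transcripts each probe set reads. Probe sets 1636146_at and 1637463_a_at were brighter in discs. The difference at 1636146_at was 1.64 ± 0.20 in lgl, 1.60 ± 0.20 in scrib and 1.42 ± 0.24 in wild type. At 1637463_a_at it was 1.69 ± 0.24 in lgl, 1.48 ± 0.24 in scrib and 0.78 ± 0.29 in wild type, the last with an adjusted p of 0.0497 that lay above 0.05 in 16 of 24 alternative settings and with a difference of 0.45 without the second wild-type disc array.

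The remaining Nrg probe set, 1626001_at, was brighter in brains. It read 6.28, 6.42 and 6.40 in lgl discs, against 8.06, 8.16 and 8.24 in lgl brains. It read 5.53, 5.58 and 6.31 in scrib discs, against 8.01, 7.95 and 8.0 in scrib brains. In wild type it read 5.41 and 5.33 in discs, against 8.18 and 9.12 in brains. No disc array reached a brain array in any genotype. The disc signal was 3.44-fold lower in lgl (-1.78 ± 0.23), 4.52-fold lower in scrib (-2.18 ± 0.23) and 9.71-fold lower in wild type (-3.28 ± 0.28), with limma adjusted p-values of 3.82e-05, 4.86e-06 and 8.26e-07.

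**Figure D1:**
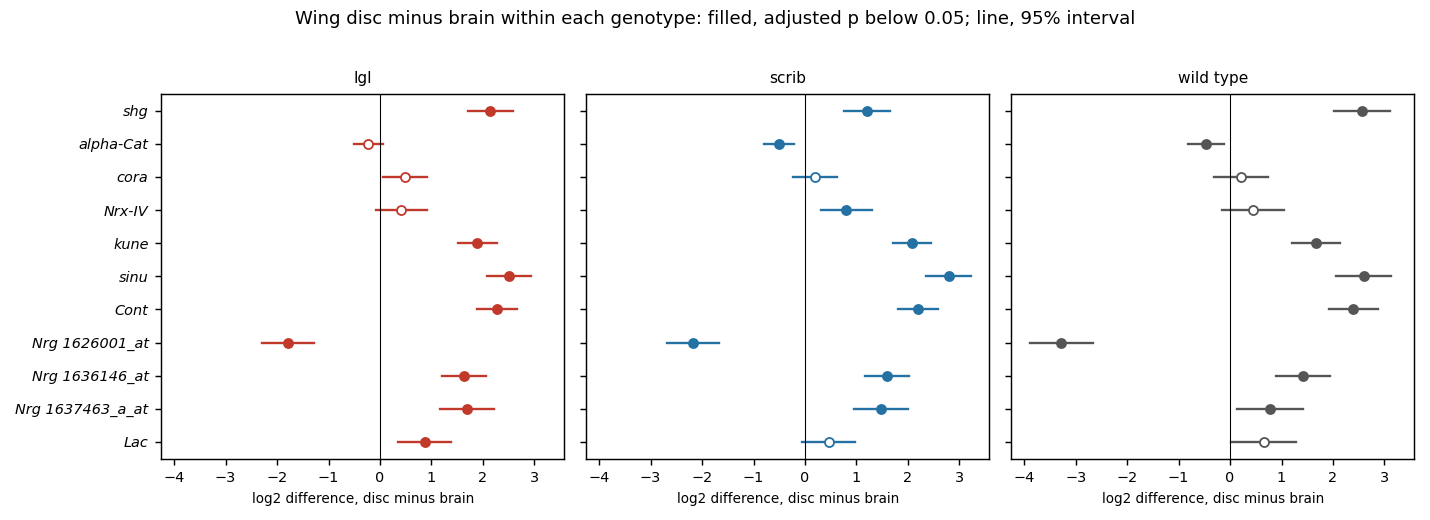
Differences in log2 signal, wing disc minus brain, for the 11 probe sets in lgl, scrib and wild-type larvae. Points are the fitted differences, lines their 95% intervals and filled points an adjusted p below 0.05; sinu, Cont, kune and shg lie right of 0 in all 3 genotypes and Nrg 1626001_at lies left of 0 in all 3.

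Against wild type, the change shared by both mutants and both tissues was at alpha-Cat. The signal of this alpha-catenin gene was 11.51, 11.52 and 11.59 in lgl discs and 10.93, 11.14 and 10.96 in scrib discs, against 11.92 and 12.17 in wild-type discs. In brains it was 11.90, 11.80 and 11.61 in lgl and 11.66, 11.35 and 11.54 in scrib, against 12.61 and 12.42 in wild type. All 12 mutant arrays lay below both wild-type arrays of their tissue.

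The fall of alpha-Cat was 1.42-fold in lgl discs (-0.50 ± 0.15, limma adjusted p = 0.0313) and 2.05-fold in scrib discs (-1.04 ± 0.15, adjusted p = 0.00033). In brains it was 1.67-fold in lgl (-0.74 ± 0.15, adjusted p = 0.00344) and 1.99-fold in scrib (-0.995 ± 0.15, adjusted p = 0.000293). The 2 scrib calls held in all 24 alternative settings, with adjusted p-values up to 0.028 in discs and 0.040 in brains. The lgl disc call was lost in 7 of the 24, including without the second wild-type disc array (-0.38, adjusted p = 0.15) and without any 1 of the lgl disc arrays (adjusted p from 0.060 to 0.085). The lgl brain call was lost in 2 of the 24, with only the 2 groups compared in the fit (adjusted p = 0.076) and with arrays weighted by group (adjusted p = 0.13). These 4 comparisons are not independent, because each tissue has 1 pair of wild-type arrays. Since the mutants were dissected later, a change of alpha-Cat with larval age cannot be told apart from one with genotype.

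Each array also held 3 control transcripts read at both ends, and these did not move alike. The log2 signal at the 3′ end of eIF-4a exceeded that at its 5′ end by 2.22 in lgl discs and 1.78 in scrib discs, against 2.32 in wild-type discs, and by 2.24 in lgl brains and 1.79 in scrib brains, against 2.51 in wild-type brains. For ACTIN the same quantity was 0.87 in lgl discs and 0.92 in scrib discs, against 0.84 in wild-type discs, and 0.81 in lgl brains and 0.97 in scrib brains, against 0.99 in wild-type brains. For GAPDH it was 0.62 in lgl discs and 0.34 in scrib discs, against 0.51 in wild-type discs, and 0.60 in lgl brains and 0.61 in scrib brains, against 0.61 in wild-type brains. For eIF-4a the lgl disc, scrib disc and scrib brain arrays lay below the wild-type arrays of their tissue. For GAPDH the scrib disc arrays lay below the wild-type disc arrays and the lgl disc arrays above them. For ACTIN the lgl brain arrays lay below the wild-type brain arrays. The remaining mutant groups overlapped wild type. The part of these control differences in the alpha-Cat result was not tested.

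In lgl discs 3 of the 11 probe sets were higher than in wild-type discs and 1 was lower, against 18.1% of all probe sets called in that comparison, 12.0% higher and 6.13% lower. The 3 that rose were all of Nrg, so they count as 1 gene. At 1636146_at the signal was 13.57, 13.58 and 13.63 in lgl discs, against 12.65 and 13.14 in wild-type discs. At 1637463_a_at it was 12.55, 12.50 and 12.71 in lgl discs, against 11.24 and 11.90 in wild-type discs. The disc values of 1626001_at given above were likewise all higher in lgl than in wild type, so the groups were apart at each of the 3 probe sets of Neuroglian, although the probe sets differed between tissues.

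Fitted rises of Nrg in lgl discs were 0.70 ± 0.22 at 1636146_at (1.62-fold, limma adjusted p = 0.0449), 1.02 ± 0.27 at 1637463_a_at (2.02-fold, adjusted p = 0.0195) and 0.996 ± 0.26 at 1626001_at (1.99-fold, adjusted p = 0.018). Each call depended on the wild-type pair. Without the first wild-type disc array they were 0.45 (adjusted p = 0.34) at 1636146_at, 0.69 (adjusted p = 0.20) at 1637463_a_at and 1.04 (adjusted p = 0.066) at 1626001_at. Without the second wild-type disc array, 1626001_at was again not called (0.96, adjusted p = 0.069). Leaving out the second lgl disc array had the same effect on 1626001_at (0.97, adjusted p = 0.052), and leaving out the third lgl disc array had it on 1637463_a_at (0.96, adjusted p = 0.059). The call at 1636146_at was lost without any 1 of the lgl disc arrays (adjusted p from 0.092 to 0.10).

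Markers of other cell types differed in the same comparison. Of 9 tested glial markers, 5 were higher and 1 lower in lgl discs than in wild-type discs, and of 9 neuronal markers 4 were higher and 0 lower. The glial gene repo averaged 7.74 in lgl discs against 4.92 in wild-type discs. The 4 neuronal genes that rose were Syn, at 6.91 in lgl discs against 2.65 in wild-type discs, Gad1, at 7.61 in lgl against 3.45 in wild-type discs, fne, at 6.43 in lgl against 4.08 in wild-type discs, and ChAT, at 4.33 in lgl against 2.64 in wild-type discs. The neuronal gene elav averaged 8.73 in lgl discs against 8.55 in wild-type discs and was not called. VGlut averaged 2.21 in both, the floor, and was below 4 on 14 of the 16 arrays, brains included. The summed signal of the neuronal list, on the log2 scale, was 9.59 to 10.25 in lgl discs against 8.39 to 9.32 in wild-type discs, without overlap. That of the glial list was 12.25 to 12.46 in lgl discs against 12.30 to 12.83 in wild-type discs.

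Tracheal cells form an epithelium with septate junctions of its own. The summed signal of the tracheal markers, on the log2 scale, was 14.41 to 14.54 in lgl discs against 13.06 to 13.41 in wild-type discs, with no overlap. Of the 5 tested, 4 had a positive difference and 0 were called higher, 1 was called lower, and the median was 0.93. Of 8 hemocyte markers, 4 were higher in lgl discs, and their sum was 12.12 to 12.59 in lgl discs against 11.50 to 12.98 in wild-type discs. Wing disc markers were lower in lgl discs for 4 of 8. Neuroglian is made by neurons and glia as well as by epithelia, and the part of any of these cells in its rise was not tested.

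No other junction gene was called in lgl discs, but for several the lgl arrays all lay above both wild-type arrays. The share of all probe sets whose groups lay apart was not counted in this or any other comparison. Arrays that lay apart are therefore given as a description only. Cont differed by 0.52 ± 0.20 (adjusted p = 0.0909), kune by 0.42 ± 0.19 (adjusted p = 0.161, but 0.046 without the second scrib brain array, which enters only the estimate of the spread), sinu by 0.40 ± 0.22 (adjusted p = 0.251) and Nrx-IV by 0.31 ± 0.26 (adjusted p = 0.458). In all, 10 of 11 probe sets and 8 of the 9 genes by their brightest probe set had a positive difference, against 51.6% of all probe sets. The shg difference was 0.09, with a 95% interval from -0.41 to 0.59, so no difference of DE-cadherin transcript was resolved.

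In scrib discs alpha-Cat was the single call among the 11 probe sets, none was higher, and 23.2% of all probe sets were called. The claudin genes kune (0.38 ± 0.19, adjusted p = 0.181) and sinu (0.33 ± 0.22, adjusted p = 0.323) lay above wild type on all 3 arrays. The shg difference was -0.35 ± 0.23 (adjusted p = 0.31). The median over the 11 probe sets was 0.20, and that over the 9 genes, each by its brightest probe set, was 0.00, as was that over all probe sets. In the scrib discs, glial markers were higher for 1 and lower for 2 of 9, and 1 of 9 neuronal, 1 of 8 hemocyte and 1 of 5 tracheal markers were lower, with 0 higher.

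**Figure D2:**
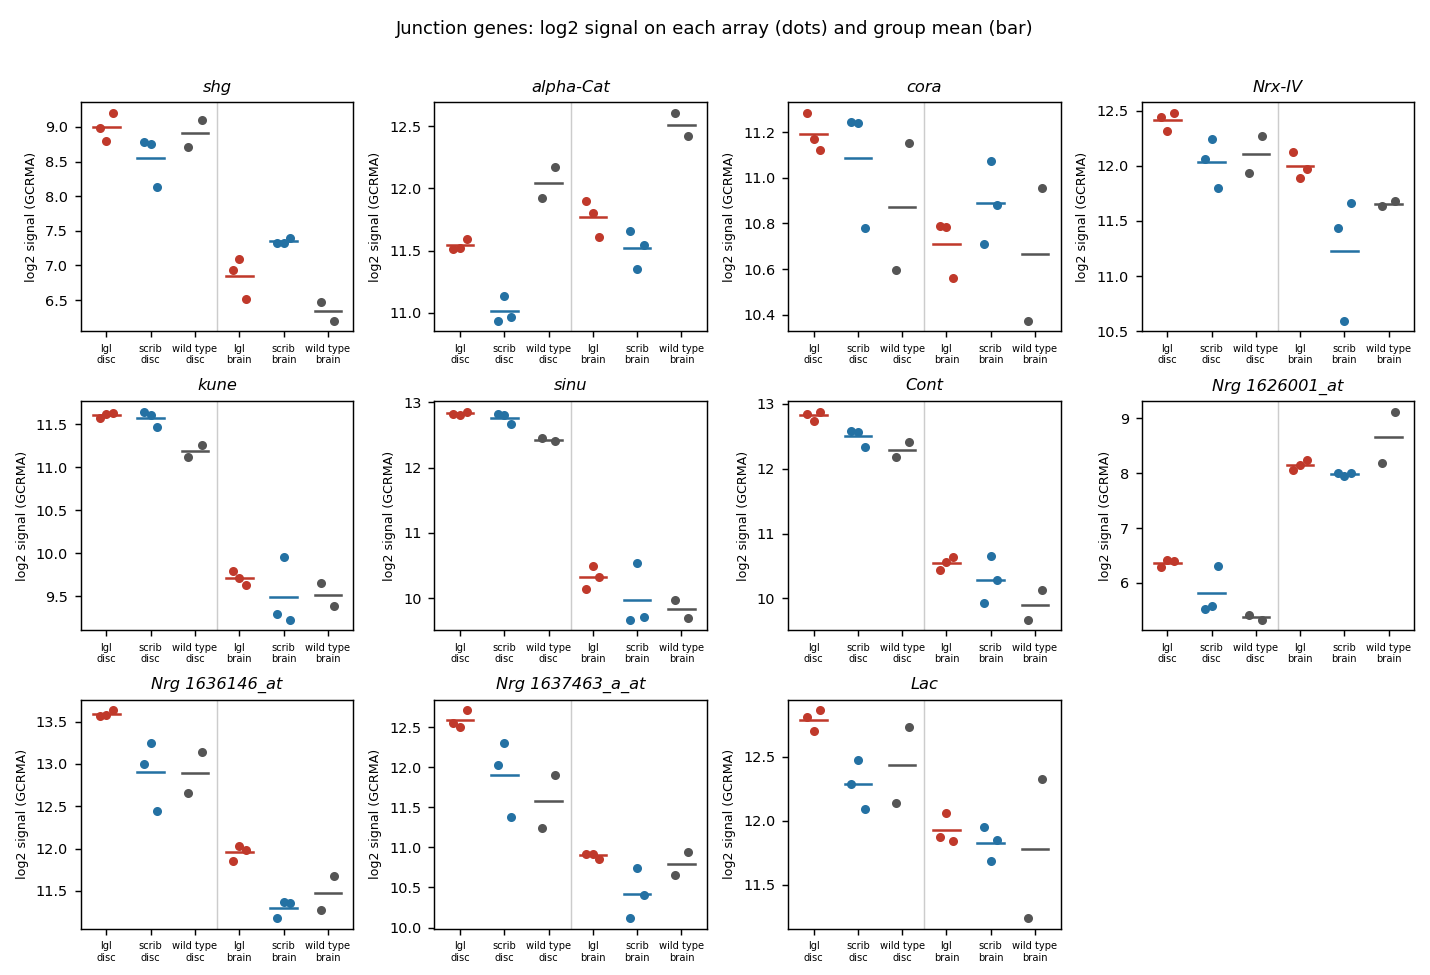
Log2 signal of each junction probe set on each of the 16 arrays (dots), with the group mean (bar), for lgl, scrib and wild-type discs and then lgl, scrib and wild-type brains. The panels have their own vertical ranges; the wild-type dots of alpha-Cat lie above all mutant dots of the same tissue, and the 2 wild-type brain dots of Lac are 11.24 and 12.33.

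In lgl brains 1 of the 11 probe sets was higher than in wild-type brains and 1 was lower, with 25.3% of all probe sets called. Besides the fall of alpha-Cat, Cont rose. Its signal was 10.43, 10.57 and 10.63 in lgl brains, against 9.67 and 10.12 in wild-type brains. The lgl arrays were all above the wild-type arrays, on average by 0.65 ± 0.20 (1.57-fold, limma adjusted p = 0.0336), and the call was lost without the first wild-type brain array (0.42, adjusted p = 0.26) or without any 1 of the lgl brain arrays (adjusted p from 0.055 to 0.082). The septate genes sinu (0.49 ± 0.22, adjusted p = 0.125) and Nrg at 1636146_at (0.48 ± 0.22, adjusted p = 0.125) and the cadherin gene shg (0.51 ± 0.23, adjusted p = 0.119) also had no array below wild type, without passing the test, although sinu was called without the second scrib brain array (adjusted p = 0.027).

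In scrib brains 1 of the 11 probe sets was higher and 1 was lower, with 34.8% of all probe sets called, the highest share of the 4 mutant comparisons. The gene that rose was shg, which encodes DE-cadherin. From the brain values given above, the 3 scrib arrays had an SD of 0.04 and all lay above both wild-type arrays. The rise was 2.02-fold (1.01 ± 0.23, limma adjusted p = 0.00466) and was called whichever single array was left out, with differences from 0.88 to 1.15 over the alternatives. It was lost where arrays were weighted by the spread of their group (adjusted p = 0.20). So in scrib brains the transcript of the cadherin was higher than in wild type while that of its partner alpha-catenin was lower.

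Nrg at 1626001_at was 8.01, 7.95 and 8.0 in scrib brains, below both wild-type values, but the difference of -0.67 ± 0.26 did not pass the test (adjusted p = 0.0634). It was called in 5 of 24 alternative settings, and was -1.14 (adjusted p = 0.0061) without the first wild-type brain array and -0.20 without the second. The other 8 probe sets had differences from -0.43 at Nrx-IV to 0.39 at Cont. Cont was called without the second wild-type brain array (0.62, adjusted p = 0.049) or the first scrib brain array (0.57, adjusted p = 0.041), and neither cora (0.22) nor Lac (0.05) was called. For Lac the wild-type brain arrays read 11.24 and 12.33, and all 6 mutant brain arrays lay between them; without the second, the lgl brain difference at Lac was 0.69 (adjusted p = 0.028). Without both first wild-type arrays, which were left out together after the data had been seen, the scrib brain difference at Lac turned to -0.50 (adjusted p = 0.044).

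Markers of other cell types differed in the mutant brains as well. Of 9 neuronal markers, 6 were lower in lgl brains and 7 in scrib brains than in wild-type brains, with none higher. Their summed signal, on the log2 scale, was 12.37 to 12.88 in lgl brains and 11.76 to 12.17 in scrib brains, against 13.70 to 13.83 in wild-type brains. Of 5 tested tracheal markers, genes of the epithelial air tubes that also carry these junctions, 3 were higher in lgl brains and 2 in scrib brains. The tracheal sum was 11.10 to 11.58 in lgl brains and 10.09 to 11.28 in scrib brains, against 8.69 to 9.88 in wild-type brains. The genes verm and serp averaged 9.87 and 9.33 in lgl brains and 9.61 and 8.67 in scrib brains, against 5.32 and 5.51 in wild-type brains. The defining tracheal gene btl averaged 2.21 in all 3 brain groups, but it also averaged only 3.35 in lgl discs, 2.37 in scrib discs and 2.97 in wild-type discs and was below 4 on 15 of the 16 arrays, so it was near the floor in discs and brains alike. Of 9 glial markers, 1 was higher and 2 lower in lgl brains, and 0 were higher and 3 lower in scrib brains. The one higher was repo, at 10.58 in lgl brains and 8.86 in scrib brains, against 9.14 in wild-type brains. The glial sum was 12.83 to 12.93 in lgl brains and 12.90 to 13.17 in scrib brains, against 13.60 to 14.06 in wild-type brains. Hemocyte markers were higher for 3 of 8 in lgl brains and 1 of 8 in scrib brains, with sums of 10.38 to 11.38 in lgl brains and 9.35 to 10.12 in scrib brains, against 9.26 to 9.43 in wild-type brains. Whether these cells have a part in the changes of Cont, shg and alpha-Cat was not tested.

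**Figure D3:**
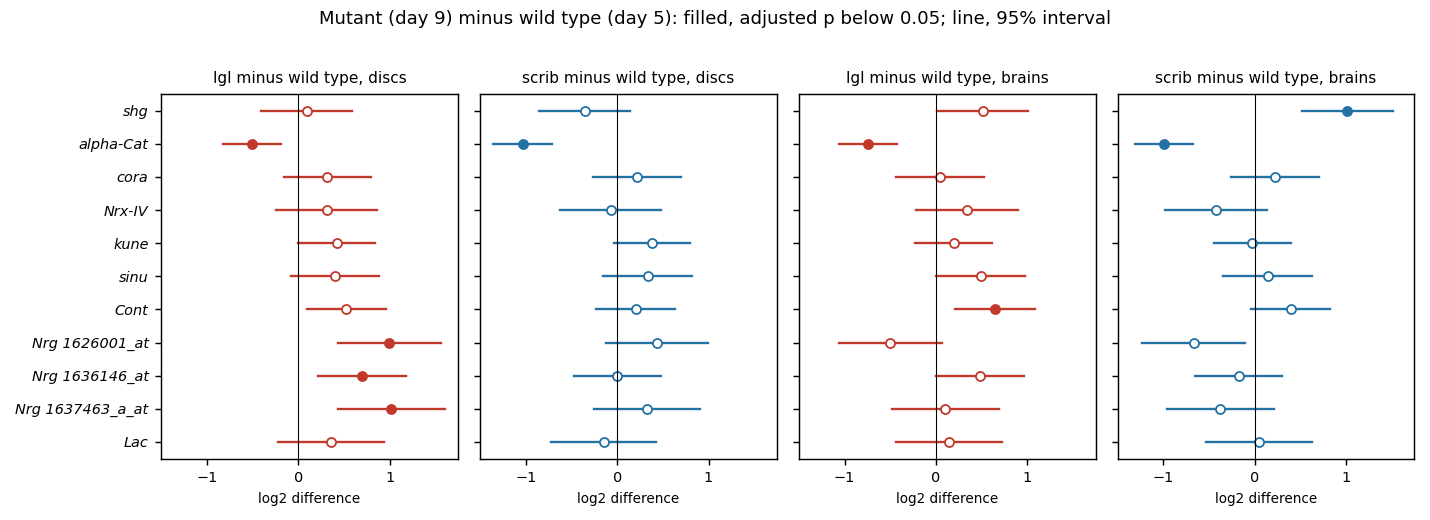
Differences in log2 signal from wild type of the same tissue for the 11 junction probe sets, in lgl discs, scrib discs, lgl brains and scrib brains. Points are fitted differences, lines 95% intervals and filled points an adjusted p below 0.05; alpha-Cat is filled and left of 0 in all 4 panels, the 3 Nrg probe sets are filled in lgl discs, Cont in lgl brains and shg in scrib brains.

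The mutants were also set against each other within a tissue, which removes the difference in age. In discs 2 of the 11 probe sets were higher in lgl than in scrib and 0 were lower, with 20.5% of all probe sets called. The difference of alpha-Cat was 0.53 ± 0.13 (1.45-fold, limma adjusted p = 0.013), and no lgl array overlapped a scrib array, so the fall from wild type was deeper in scrib discs by a test of the difference itself. That call sat near the threshold: adjusted p was 0.052 without the third lgl disc array, 0.050 without the first scrib disc array and 0.051 without the third scrib disc array. Nrg at 1636146_at was higher in lgl discs by 0.69 ± 0.20 (1.62-fold, adjusted p = 0.0264), lost without any 1 of the lgl disc arrays (adjusted p from 0.065 to 0.080) or without the third scrib disc array (0.47, adjusted p = 0.11). At 1637463_a_at the difference was 0.69 ± 0.24 (adjusted p = 0.0609), and at 1626001_at 0.56 ± 0.23 (adjusted p = 0.11). Without the third scrib disc array 1626001_at differed by 0.81 (adjusted p = 0.028), and without the second 1637463_a_at differed by 0.89 (adjusted p = 0.031). All 11 probe sets had a positive difference, against 51.0% of all probe sets, with a median of 0.44 against 0.01; over the 9 genes by their brightest probe set it was 0.38. Markers of several cell types were higher in lgl than in scrib discs: 7 of 8 hemocyte, 6 of 9 glial and 6 of 9 neuronal markers, with medians of 2.64, 2.91 and 1.89, and 0 of 5 tracheal markers. The hemocyte sum was 12.12 to 12.59 in lgl discs against 10.30 to 10.82 in scrib discs, and the neuronal sum was 9.59 to 10.25 in lgl discs against 7.41 to 7.44 in scrib discs. The glial sum was 12.25 to 12.46 in lgl discs against 11.30 to 12.04 in scrib discs, and the tracheal sum was 14.41 to 14.54 in lgl discs against 13.51 to 13.83 in scrib discs. None of these 4 sums overlapped, and the part of these cells in the differences of alpha-Cat and Nrg was not tested.

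In brains 2 of the 11 probe sets were higher in lgl than in scrib and 0 were lower, with 11.5% of all probe sets called. Nrx-IV, the neurexin of the septate strand, was 12.13, 11.89 and 11.97 in lgl brains, against 11.44, 10.59 and 11.66 in scrib brains. The groups did not overlap, but the second scrib array stood far below the other two. The difference of 0.77 ± 0.23 (1.70-fold, limma adjusted p = 0.0481) became 0.45 (adjusted p = 0.14) without that array, and its call was lost in 14 of 24 settings, including without any 1 of the lgl brain arrays or the first scrib brain array (adjusted p from 0.061 to 0.15). Nrg at 1636146_at was higher in lgl brains by 0.66 ± 0.20 (1.58-fold, adjusted p = 0.0491), a call lost in 11 of the 24 settings, including without any 1 of the lgl or scrib brain arrays (adjusted p from 0.091 to 0.14). The alpha-Cat difference in brains was 0.25 ± 0.13 (adjusted p = 0.25), with a 95% interval from -0.03 to 0.54. The shg difference was -0.50 ± 0.21 (adjusted p = 0.136), with every lgl brain array below every scrib brain array. The sinu difference was 0.35, and 0.63 (adjusted p = 0.018) without the second scrib brain array. Of the marker lists, 1 of 9 glial, 1 of 9 neuronal, 1 of 8 hemocyte and 1 of 8 wing disc markers were higher in lgl than in scrib brains. None of these lists had a marker called lower. The neuronal sum was 12.37 to 12.88 in lgl brains against 11.76 to 12.17 in scrib brains. The hemocyte sum was 10.38 to 11.38 in lgl brains against 9.35 to 10.12 in scrib brains. Neither sum overlapped, while the glial and tracheal sums did. The part of these cells was not tested.

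Whether a mutant changed a junction gene differently in discs and brains was tested as the difference of the 2 effects. For lgl, 1 of the 11 probe sets was called, higher in discs, against 13.5% of all probe sets. It was Nrg at 1626001_at, whose lgl effect was 0.996 ± 0.26 in discs and -0.50 ± 0.26 in brains, a difference of 1.50 ± 0.37 (limma adjusted p = 0.0177). The brain effect rested on wild-type arrays that read 8.18 and 9.12: it was -0.97 (adjusted p = 0.025) without the first and -0.03 without the second. The difference between tissues was 1.03 to 2.01 over the alternatives, and its call was lost with arrays weighted by group (adjusted p = 0.20). The same probe set had the corresponding difference of 1.10 ± 0.37 in scrib, which did not pass (adjusted p = 0.0724) but was called in 3 of the 24 settings, among them without the first wild-type brain array (1.57, adjusted p = 0.0092), and was 0.63 without the second. Whether lgl and scrib differ in it was not tested. So at this probe set the gap between discs and brains was narrower in lgl larvae than in wild type. Of 9 neuronal markers, 6 were called higher and 0 lower in the same lgl difference, with a median of 2.19. In the scrib difference 4 of the 9 were higher and 0 lower, with a median of 1.45. The part of neurons in the Nrg result was not tested. For scrib, 1 of the 11 was called, lower in discs, against 11.3% of all probe sets. It was shg, whose scrib effect was -0.35 ± 0.23 in discs and 1.01 ± 0.23 in brains, a difference of -1.37 ± 0.32 (adjusted p = 0.0181). Without the second wild-type disc array it was -1.17 (adjusted p = 0.059). The lgl effect on shg had a difference of -0.42 ± 0.32 (adjusted p = 0.444). For alpha-Cat neither difference was called, at 0.24 ± 0.21 in lgl and -0.04 ± 0.21 in scrib, with 95% intervals from -0.21 to 0.69 and from -0.49 to 0.41.

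Other genes of the same junctions were listed to place the named ones among their neighbours. Of 20 other septate junction genes, 17 had a probe set and 16 were tested, each through its brightest probe set; of 13 other adherens junction genes, 11 had one and 10 were tested. The septate list had the tissue pattern of the claudins: 13 of 16 were higher in discs than in brains in lgl larvae, 14 in scrib and 14 in wild type, with 0, 0 and 1 lower, against 20.3%, 20.1% and 20.5% of all probe sets called higher. Its median disc minus brain difference was 1.99 in lgl, 2.45 in scrib and 2.27 in wild type. Of the adherens list, 6, 6 and 7 of 10 were higher in discs and 2 were lower in each genotype.

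Against wild type, 0 of the 16 septate genes were called by limma in lgl discs, where 18.1% of all probe sets were called; 2 had an unadjusted p below 0.05, and the median was 0.24 against 0.01 over all. In scrib discs 4 of 16 were called, 2 higher and 2 lower, a share near the 23.2% of all probe sets. The claudin gene pck rose by 1.07 ± 0.29 (adjusted p = 0.0189) and pasi1, which encodes a septate membrane protein, by 0.81 ± 0.23 (adjusted p = 0.024). The sodium pump subunit gene nrv1 fell by 0.67 on the log2 scale (adjusted p = 0.0129) and the scaffold gene dlg1, Discs large, fell by 1.36 (adjusted p = 0.0388). The dlg1 probe sets disagreed there: 1627882_at gave 0.30 and 1635382_at gave -0.50, and neither was called. Chosen after its values were seen, 1627882_at was lower in lgl discs (-0.91, adjusted p = 0.0324), while the brightest dlg1 probe set was not called there.

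Each of these scrib disc calls was lost when some single array was left out, although the pck and nrv1 differences themselves moved little. Over the 24 alternatives they ran from 0.91 to 1.23 for pck and from -0.77 to -0.60 for nrv1. Without the first wild-type disc array pck differed by 0.91 (adjusted p = 0.11) and nrv1 by -0.63 (adjusted p = 0.063). The call of pasi1 was lost without the second wild-type disc array (0.57, adjusted p = 0.19) or without the first or the third scrib disc array (adjusted p = 0.058 and 0.065). The call of dlg1 was lost in 14 of 24 settings, and without the third scrib disc array dlg1 differed by -0.80 (adjusted p = 0.082).

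In lgl brains 4 of the 16 septate genes were higher and 1 was lower, and in scrib brains 2 were higher and 2 lower. Beside them, 25.3% and 34.8% of all probe sets were called in these comparisons, so the counts are not a result about this list. The claudin gene pck rose by 1.39 ± 0.29 in lgl brains and 1.19 ± 0.29 in scrib brains, and Tsf2, a transferrin of the junction, by 1.34 ± 0.29 and 0.95 ± 0.29 (limma adjusted p from 0.00476 to 0.0215). The scaffold gene vari rose in lgl brains by 1.24 ± 0.33 (adjusted p = 0.0173), and the pump subunit gene nrv2 fell by 0.90 (adjusted p = 0.0263). In scrib brains nrv1 fell by 1.76 (adjusted p = 1.41e-05) and M6, a proteolipid gene, by 0.64 (adjusted p = 0.0118). The sodium pump subunit nrv1 was 8.54, 8.45 and 8.95 in scrib brains, against 10.40 and 10.41 in wild-type brains, with no overlap. Without the first wild-type brain array the rises were 0.86 for pck, 0.87 for Tsf2 and 1.10 for vari in lgl brains, 0.66 for pck and 0.47 for Tsf2 in scrib brains, and nrv2 was -0.30 in lgl brains, none of them called. The calls of vari and nrv2 were also lost without the second lgl brain array (adjusted p = 0.053 and 0.055), nrv2 without the third (adjusted p = 0.071) and Tsf2 without the second scrib brain array (0.74, adjusted p = 0.076). In the same brains the tracheal markers given above were higher, and their part was not tested.

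Of the 10 adherens junction genes, 2 were higher and 0 lower in lgl discs, 1 higher and 2 lower in scrib discs, 3 higher and 1 lower in lgl brains, and 3 higher and 2 lower in scrib brains, beside 18.1%, 23.2%, 25.3% and 34.8% of all probe sets called. Among them the scaffold gene Magi was higher in all 4 mutant groups. It was 9.51, 9.36 and 9.66 in lgl discs and 9.52, 9.32 and 9.51 in scrib discs, against 8.76 and 8.94 in wild-type discs. In brains it was 8.69, 8.83 and 8.53 in lgl and 8.88, 8.84 and 8.71 in scrib, against 7.47 and 8.07 in wild type. The Magi differences were 0.66, 0.60, 0.91 and 1.04 ± 0.18 each in lgl discs, scrib discs, lgl brains and scrib brains, with limma adjusted p-values of 0.0233, 0.0306, 0.00341 and 0.000858. Both disc calls were lost without the first wild-type disc array (0.57 in lgl and 0.51 in scrib, adjusted p = 0.14 each), and without the first or the third array of either mutant (adjusted p from 0.060 to 0.082). The scrib disc call was also lost without the second wild-type disc array (0.69, adjusted p = 0.056).

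The catenin gene p120ctn fell in 3 of the 4 comparisons in which alpha-Cat fell. It fell by 0.53 in scrib discs (limma adjusted p = 0.0176), by 0.82 in lgl brains (adjusted p = 0.00167) and by 0.97 in scrib brains (adjusted p = 0.000292), and its difference in lgl discs was -0.33 (adjusted p = 0.14). It was 11.53, 11.32 and 11.16 in scrib brains, against 12.45 and 12.17 in wild-type brains. The scrib disc call was lost without either wild-type disc array (adjusted p = 0.052 and 0.073) or without the third scrib disc array (adjusted p = 0.053).

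N-cadherin, encoded by CadN and mostly neuronal, fell in scrib brains by 2.21 (4.62-fold, limma adjusted p = 0.000895), beside the fall of 7 of 9 neuronal markers there. Its signal was 6.95, 6.49 and 7.03 in scrib brains, against 8.93 and 9.13 in wild-type brains. The part of neurons in this fall was not tested. In scrib discs it was at least 2.07-fold lower (adjusted p = 0.0153), a call lost without the second wild-type disc array (-1.17, adjusted p = 0.12) or the third scrib disc array (-1.18, adjusted p = 0.058).

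The polarity gene baz, Drosophila Par-3, rose in lgl brains by 2.05 ± 0.54 (adjusted p = 0.0152) and in scrib brains by 2.12 ± 0.54 (adjusted p = 0.00864), but without the first wild-type brain array by 0.96 (adjusted p = 0.21) and 1.03 (adjusted p = 0.13). The gene sdk, of the vertex protein Sidekick, was higher in lgl brains by 0.73 and in scrib brains by 0.67, with adjusted p-values of 0.0444 and 0.0493. The gene of vinculin, Vinc, rose in lgl discs by 1.51 ± 0.47 (adjusted p = 0.0406). These calls of sdk and Vinc were lost in 18, 19 and 13 of the 24 settings. Without the first wild-type brain array sdk differed by 0.33 in lgl and 0.27 in scrib brains, and without the first wild-type disc array Vinc differed by 0.98 in lgl discs. Over both lists, 2 of 26 named differences held in every alternative, p120ctn and nrv1 in scrib brains, and 7 of 26 held without any 1 array.

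**Figure D4:**
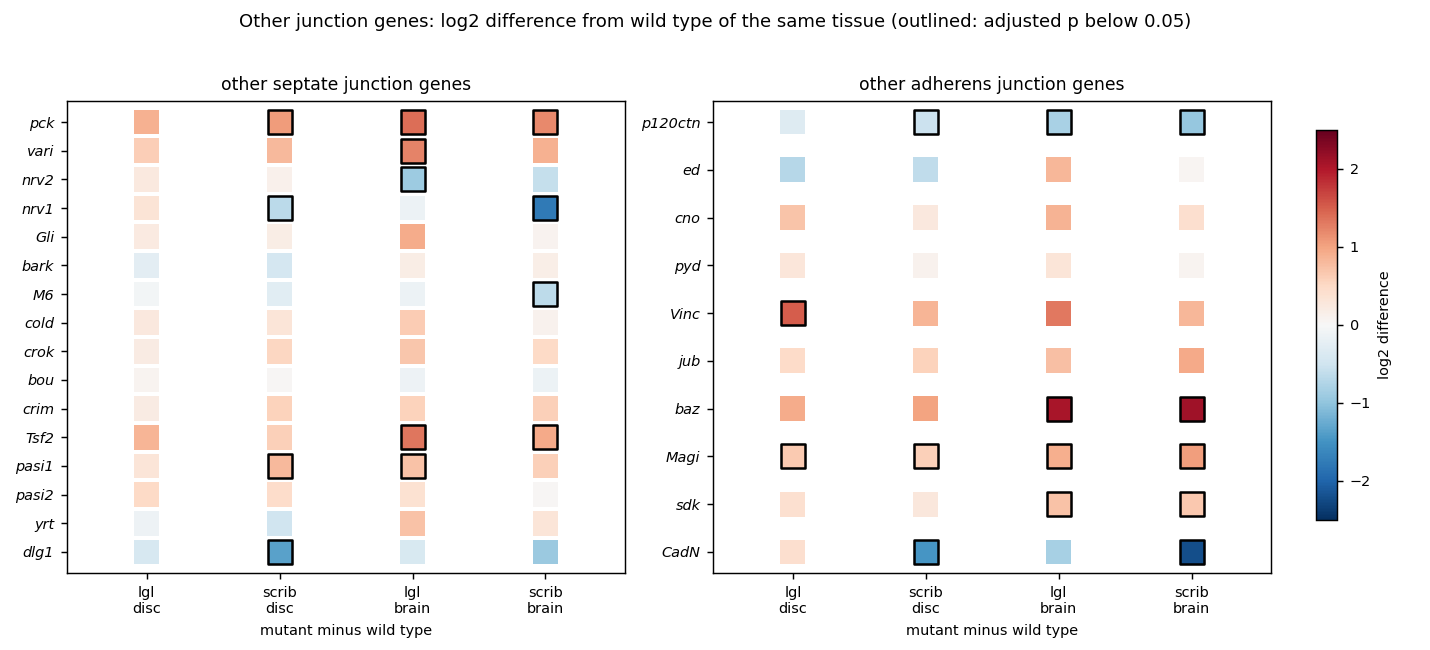
Log2 difference from wild type of the same tissue for the tested genes of the other septate junction list (left) and the other adherens junction list (right), by colour, in lgl discs, scrib discs, lgl brains and scrib brains. Squares with an outline had an adjusted p below 0.05; Magi is outlined in all 4 columns and p120ctn in 3, while no septate gene is outlined in lgl discs.

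The signal pattern most like that of each junction gene was sought among tested probe sets of other named genes, by Pearson's r over the 16 arrays. The arrays form a disc cluster and a brain cluster, and the genes share library, labelling and scan, so r was also taken within 8 disc arrays and within 8 brain arrays and is given without a test. The nearest to alpha-Cat was Kdm4A, a histone demethylase gene, with r of 0.963 over all arrays, 0.956 in discs and 0.971 in brains. For shg it was kst, the heavy beta-spectrin gene, with 0.986 over all, 0.872 in discs and 0.903 in brains. Both claudin genes had the same nearest gene, pasi2 of the septate list, with 0.997 over all, 0.950 in discs and 0.964 in brains for sinu, and 0.995, 0.845 and 0.925 for kune. Within the junction genes, kune and sinu had an r of 0.995 with each other.

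For Cont the nearest gene was udt, with r of 0.996 over all arrays, 0.903 in discs and 0.969 in brains. For cora it was Gdh, the glutamate dehydrogenase gene, with 0.931, 0.908 and 0.967. For Lac it was Pp2B-14D, a calcineurin subunit gene, with 0.950, 0.924 and 0.915, and for the brightest Nrg probe set it was sona, a secreted metalloprotease gene, with 0.977, 0.879 and 0.954. For Nrx-IV it was Nedd4, a ubiquitin ligase gene, with 0.922 over all arrays and 0.965 in brains but 0.506 in discs. Between shg and alpha-Cat, which act in the same complex, r over the 16 arrays was -0.47. For pairs of junction genes r was taken over both tissues together only, so it does not give the sign within a tissue. In discs both shg and alpha-Cat had their lowest group mean in scrib larvae. In brains scrib larvae had the highest mean of shg and the lowest of alpha-Cat.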

How the data were processed

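Single-colour Affymetrix Drosophila Genome 2.0 arrays had been hybridised with biotin cRNA of 16 samples in 6 groups. The deposited values are log2 signals that the authors made with GCRMA, per the submitters' processing notes; its version is not given in the sources used here, and the values share a floor of 2.21. Control probe sets (183) were left out. Of 18952 probe sets 13647 had 1 symbol in the supplied annotation, 402 several and 4720 none. The 8819 probe sets with a signal of 4 or more on 2 or more arrays entered a linear model in limma (version 3.58.1, under R 4.3.3), with 1 mean per group, 10 residual degrees of freedom, 11 contrasts and Benjamini-Hochberg adjustment within each. The model was checked on simulated data with the same spread in every group. That check therefore does not cover the wider spread of the wild-type pairs. The 24 alternatives changed the filter, the prior, the normalization, a replicate block, the groups in the fit, the array weights or the arrays kept. No other column of values was present.

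Folds come from group means; an array below 4 in the dimmer group was set to 4 and the fold written as at least that large. Each junction gene was named with every probe set. Of each list of other junction genes, up to 3 called genes per direction and mutant comparison with the smallest adjusted p were named, and for each junction gene the most similar other gene. Genes, lists and tests were chosen with earlier results of these data known. No sequence or coordinate is given. The number of arrays limits the precision.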

Additional observations from a re-analysis of the deposited data

Results flagged for a closer look

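For 2 results the effect of a mutant in discs differed from its effect in brains by a test of the difference itself. At Nrg 1626001_at the lgl effect was 1.50 ± 0.37 (SE, log2) higher in discs than in brains (limma adjusted p = 0.0177): 3 of 3 lgl disc arrays lay above both wild-type disc arrays, while the lgl brain arrays overlapped the wild-type brain arrays. Of 9 neuronal markers, 6 were called higher and 0 lower in that difference, and their part was not tested. At shg the scrib effect was -1.37 ± 0.32 in discs relative to brains (adjusted p = 0.0181): 3 of 3 scrib brain arrays lay above both wild-type brain arrays, while the scrib disc arrays overlapped the wild-type disc arrays. Groups of 2 and 3 arrays are too small to test for single outlying arrays.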

How the results depend on the processing

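Of 121 differences of junction probe sets, 40 were called, and 23 of these kept their call and direction in all 24 alternatives. Counts of called probe sets that moved by over 1.5 times were as follows. With no filter on dim probe sets, 2 were called in lgl discs against wild type (4 as reported), 1 in lgl brains (2 as reported), and between lgl and scrib 1 in discs and 0 in brains (2 each as reported). With only the groups of each contrast in the fit, the counts were 1 in lgl discs, 0 in lgl brains, 1 for lgl against scrib brains, 5 for wild-type discs against brains (8 as reported) and 0 for the scrib difference between tissues (1 as reported). With arrays weighted by group, they were 0 in lgl discs, 0 in lgl brains, 1 in scrib brains, 5 for lgl against scrib discs, and 0 for either mutant's difference between tissues. With quantile normalization added, 2 were called for the scrib difference between tissues. Leaving out 1 array gave 1 to 4 in lgl discs, 1 to 3 in lgl brains, 0 to 4 for lgl against scrib discs, 0 to 2 for lgl against scrib brains and 0 to 2 for the scrib difference between tissues.

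Without both first wild-type arrays, an alternative chosen after seeing the data, the counts were 2 in lgl discs, 4 in scrib brains, 5 for lgl against scrib discs and 2 for the scrib difference between tissues, and the scrib brain difference of Lac reversed to -0.50 (adjusted p = 0.044; 0.05 as reported). The cause of these moves was not tested. Some of the settings had fewer arrays or more probe sets in the fit. With the replicate number as a block, 38 of the 40 calls were kept, 2 were lost and 3 gained; the count for lgl against scrib brains fell to 1, and alpha-Cat in lgl discs was -0.49 (adjusted p = 0.059). Deviations of same-numbered arrays correlated between -0.17 and 0.43, over 0.1 in 6 of 36 pairs, so the numbers were not taken to pair the arrays of all groups. The wild-type disc and brain arrays did deviate together by number, at 0.43 for the same number and -0.43 across numbers, which mirror each other with 2 arrays a group. A stricter filter at 6 moved no call.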
